A study of Caenorhabditis elegans with 4 samples.

Results

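Chaperones are proteins that bind other proteins while they fold, and each compartment of the cell keeps its own set. The 10 genes examined here were taken by name from the 46934 genes of the deposited table, and all 10 were found. They comprise 6 genes whose products act in the cytosol (hsp-1, hsp-70, hsp-90, hsp-16.2, hsp-16.41 and hsp-12.6), 2 that encode chaperones of the endoplasmic reticulum (ER) (hsp-3 and hsp-4) and 2 that encode chaperones of mitochondria (hsp-6 and hsp-60). All 10 are annotated as protein-coding. The cytosolic hsp-70 and hsp-16 genes are silent or weakly transcribed in unstressed worms and are switched on by heat shock factor HSF-1, whereas hsp-1 and hsp-90 are used by every cell at all times. The ER gene hsp-4 is the classical reporter of the ER unfolded protein response, in which IRE-1 and XBP-1 act, and hsp-6 and hsp-60 are the classical reporters of the mitochondrial unfolded protein response, in which ATFS-1 acts.

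RNA came from whole synchronized C. elegans adults grown at 20 °C on OP50 bacteria, with about 50000 worms pooled per library and no treatment listed. The 4 libraries fell into a control group of 2, labelled pgl-1::RFP for a tagged germ granule protein, and a group of 2 from an eggd-1 null mutant, which lacks a protein needed to keep germ granules beside the nuclei of germ cells. The label of the mutant names eggd-1 only, so whether the mutant also carries the tag is not given by the labels, and an effect of the tag and of the deletion cannot be told apart if it does not. Every tissue and every germ cell contributed to each library, and fewer cells of a type cannot be told apart from less RNA per cell.

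Totals ran from 17603513 to 30812591 counts per library. The deleted gene, listed as mip-1, was covered by 2074 and 3177 control counts and by 6 and 3 counts in eggd-1, in the direction of the labels. Of the cell type markers examined, all 8 sperm genes, 5 of 6 intestine genes and 4 of 5 body muscle genes were higher in eggd-1 by DESeq2 (8, 3 and 4 by edgeR), while 2 of the 6 tested embryo genes were lower and none was higher (0 higher also at an unadjusted p-value under 0.05 and by edgeR). Of the other lists, 2 of 6 oocyte genes, 2 of 5 hypodermis genes and 2 of 5 neuron genes were higher, and 1 neuron gene was lower. Summed normalized counts of the sperm markers were 814 and 1052 in the control and 3120 and 2558 in eggd-1, and those of the body muscle markers were 129581 and 161296 in the control and 258866 and 260134 in eggd-1. All markers had counts in at least 1 library. The part of these differences in the chaperone values was not tested.

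The heat-inducible cytosolic genes were lower in eggd-1, whereas of the constitutive cytosolic genes, the ER genes and the mitochondrial genes only hsp-60 passed the test, as slightly higher. DESeq2 was run with Benjamini-Hochberg adjustment and a limit of 0.05, and 3 of the 10 genes were lower (hsp-16.2, hsp-16.41 and hsp-70) and 1 was higher (hsp-60). The count of higher genes was 5 without control replicate 2 (hsp-90, hsp-3, hsp-4, hsp-6 and hsp-60) and 0 without any of the other 3 libraries. Over the 16773 rows tested, 20.4% were lower and 18.6% were higher. The 3 lower genes all fell by at least 2-fold, which 4.79% of the tested rows did, and 2 of them by at least 4-fold, which 0.763% did. The median log2 fold change was -1.13 for the 6 cytosolic genes, 0.15 for the 2 ER genes and 0.28 for the 2 mitochondrial genes, against 0.01 over all tested rows (0.005 before rounding). The cytosolic values were spread widely, from -2.48 for hsp-16.41 to 0.18 for hsp-90, so their median does not describe the constitutive genes. Leaving out control replicate 1 put the ER median at -0.08, and leaving out control replicate 2 put it at 0.395. The same fits put the mitochondrial median at 0.11 and 0.45.

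**Figure D1:**
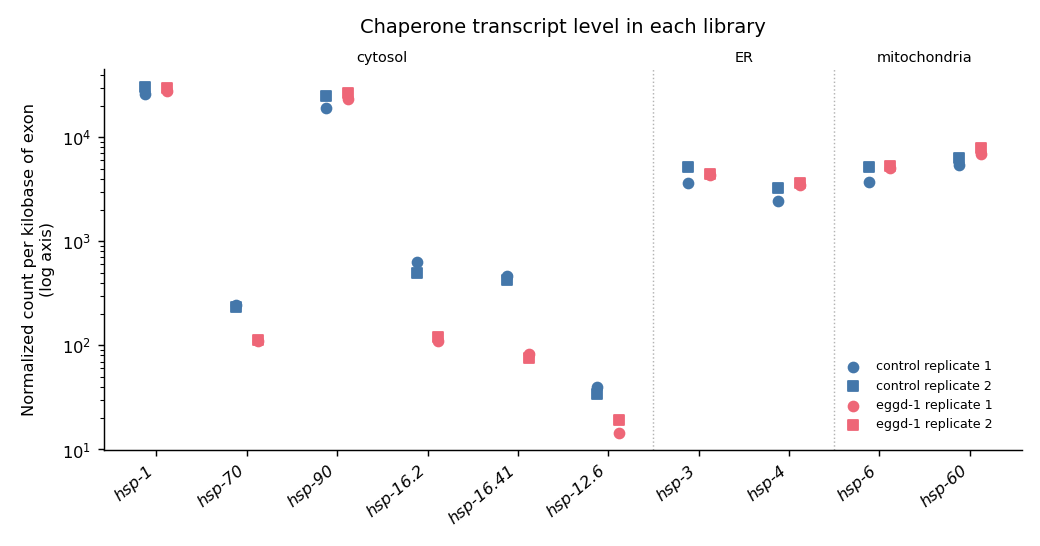
Normalized count per kilobase of exon (log axis) of each chaperone gene in the 4 libraries, with control libraries in blue, eggd-1 libraries in red, replicate 1 as circles and replicate 2 as squares. For hsp-70, hsp-16.2, hsp-16.41 and hsp-12.6, both eggd-1 libraries lie below both control libraries, as in 38.9% of all tested rows. For hsp-4 and hsp-60 both lie above, as in 38.5% of all tested rows, while hsp-1, hsp-90, hsp-3 and hsp-6 overlap between groups.

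Levels were compared between genes as normalized counts (counts divided by the DESeq2 size factor of the library) per kilobase of exon. In the control, hsp-1, which encodes the constitutive Hsc70, was highest at 28203 ± 3426 (SD, n = 2), followed by hsp-90 at 21967 ± 3803. Next came hsp-60 at 5824 ± 639, hsp-3 at 4427 ± 1131, hsp-6 at 4410 ± 997 and hsp-4 at 2846 ± 605. The inducible genes were far lower, with 566 ± 95.9 for hsp-16.2, 445 ± 28.0 for hsp-16.41 and 240 ± 7.11 for hsp-70, and hsp-12.6 was lowest at 36.9 ± 3.61. The libraries of neighbours in this order overlapped only for hsp-3 and hsp-6. Among 18740 protein-coding genes with a count, hsp-1 ranked 87 and 88 and hsp-90 ranked between 112 and 118 in the control libraries, while hsp-70 ranked between 6653 and 6726. In eggd-1 the ranks were 40 to 52 for hsp-1, 62 to 83 for hsp-90 and 8417 to 8600 for hsp-70.

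In eggd-1 the order of the means changed at 2 places. On the same scale, hsp-6 at 5177 ± 180 lay above hsp-3 at 4393 ± 21.5, whereas the libraries of this pair overlapped in the control. The level of hsp-70 at 111 ± 1.20 moved above hsp-16.41 at 79.7 ± 4.53 and overlapped with hsp-16.2 at 116 ± 6.91. The top of the order remained hsp-1 (28724 ± 1449), hsp-90 (24867 ± 2351) and hsp-60 (7355 ± 721). Of the summed level of the 10 genes, the cytosolic genes held between 73.95% and 75.44% in the control libraries and between 72.2% and 72.75% in eggd-1. The mitochondrial genes held 14.74% and 14.92% in the control and 16.77% and 16.93% in eggd-1, and the ER genes between 9.82% and 11.13% in all 4 libraries, with overlap between the groups. Such shares depend on each other. Most of the cytosolic share came from hsp-1 (between 38.23% and 41.88%) and hsp-90 (between 31.31% and 34.1%), neither of which was called lower. How often shares of other genes differ in this way was not counted.

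The small heat shock genes hsp-16.2 and hsp-16.41 encode members of the alpha-crystallin family, which hold unfolding proteins in solution, and hsp-16.2 is widely used as a reporter of heat stress. The gene hsp-16.2 (WBGene00002016, WBcel235 chromosome V, 1804334 to 1804957, minus strand) gave 362 and 403 control counts and 58 and 57 eggd-1 counts, or 366 and 288 against 64.1 and 69.7 normalized counts. Both eggd-1 libraries lay below both control libraries, as in 38.9% of all tested rows. Expression was 4.89-fold lower in eggd-1, a log2 fold change of -2.29 (SE 0.27) with a DESeq2 adjusted p of 5.67e-16.

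The gene hsp-16.41 (WBGene00002018, chromosome V, 1805178 to 1805875, plus strand) is the divergent neighbour of hsp-16.2. The annotated 5′ ends of the pair lie 221 bases apart with no gene between them. It gave 294 and 381 control counts and 48 and 40 eggd-1 counts, which gave normalized counts of 298 and 272 against 53.0 and 48.9. It was 5.58-fold lower in eggd-1, a log2 fold change of -2.48 (SE 0.28) with a DESeq2 adjusted p of 4.54e-17, close to the change of its neighbour. Within a library the level of hsp-16.2 per kilobase was 1.36 and 1.17 times that of hsp-16.41 in the control and 1.34 and 1.58 times in eggd-1, so the ratio overlapped between the groups.

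The gene hsp-70 (WBGene00002026, chromosome I, 9320325 to 9322519, minus strand) encodes a heat-inducible cytosolic chaperone of the same family as hsp-1. It gave 497 and 675 control counts and 205 and 188 eggd-1 counts. The normalized counts, 503 and 482 against 226 and 230, were tight within each group and did not overlap. Both eggd-1 libraries lay below both control libraries in 38.9% of all tested rows. The gene was 2.16-fold lower in eggd-1, a log2 fold change of -1.11 (SE 0.19) with a DESeq2 adjusted p of 1.22e-07. Calls for hsp-16.2, hsp-16.41 and hsp-70 held under all 13 alternatives of processing, with log2 fold changes between -2.47 and -2.12, between -2.56 and -2.39 and between -1.16 and -1.02.

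The gene hsp-12.6 (WBGene00002013, chromosome IV, 9446229 to 9447228, minus strand) encodes a small heat shock protein whose transcription depends on DAF-16 in long-lived insulin receptor mutants. It was scarce, with 30 and 37 control counts and 10 and 12 eggd-1 counts. The normalized counts were 30.4 and 26.4 against 11.1 and 14.7, without overlap, as in 38.9% of all tested rows with both eggd-1 libraries below both control libraries. The log2 fold change of -1.14 had an SE of 0.66 and did not pass (DESeq2 adjusted p = 0.164), while the edgeR quasi-likelihood test passed (adjusted p = 0.0113). By edgeR, 4 of the 10 genes were lower, with hsp-12.6 added, and 2 were higher (hsp-60 and hsp-4), while 28.1% of its tested rows were lower and 29.8% higher. A piRNA gene, 21ur-14949, overlaps hsp-12.6 on the same strand.

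The constitutive genes gave a different picture. The gene hsp-1 (WBGene00002005, chromosome IV, 17278959 to 17281330, plus strand) had 53444 and 63488 normalized counts in control against 57421 and 61670 in eggd-1. The eggd-1 values lay between the control values. The log2 fold change was 0.03 (SE 0.13, 95% interval -0.23 to 0.28, DESeq2 adjusted p = 0.898), and it was -0.10 without control replicate 1 and -0.02 without eggd-1 replicate 2. A small nucleolar RNA gene, F26D10.24, lies within hsp-1 on the same strand, and 3 of the 4 hsp-1 counts were fractional, which the counting gives where a read matches several loci.

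The gene hsp-90 (WBGene00000915, chromosome V, 14684918 to 14688545, plus strand) encodes the cytosolic chaperone that matures kinases and nuclear receptors. It had 45476 and 58162 normalized counts in control against 54741 and 62583 in eggd-1, with overlap. The log2 fold change was 0.18 (SE 0.14, 95% interval -0.10 to 0.46, DESeq2 adjusted p = 0.337). Leaving out control replicate 1 gave 0.001 and leaving out control replicate 2 gave 0.35, where it passed (adjusted p = 0.00734).

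Relative to hsp-1 in the same library, the level of hsp-70 per kilobase was 0.0095 and 0.0077 in the control and 0.0040 and 0.0038 in eggd-1. That ratio does not depend on the scaling between libraries, and it did not overlap between the groups. Over the 16772 other tested rows, 37.6% had a ratio to hsp-1 that was lower in both eggd-1 libraries than in both control libraries, and 36.5% had one that was higher. The corresponding ratio of hsp-90 to hsp-1 was 0.748 and 0.805 in the control and 0.838 and 0.892 in eggd-1, also without overlap.

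**Figure D2:**
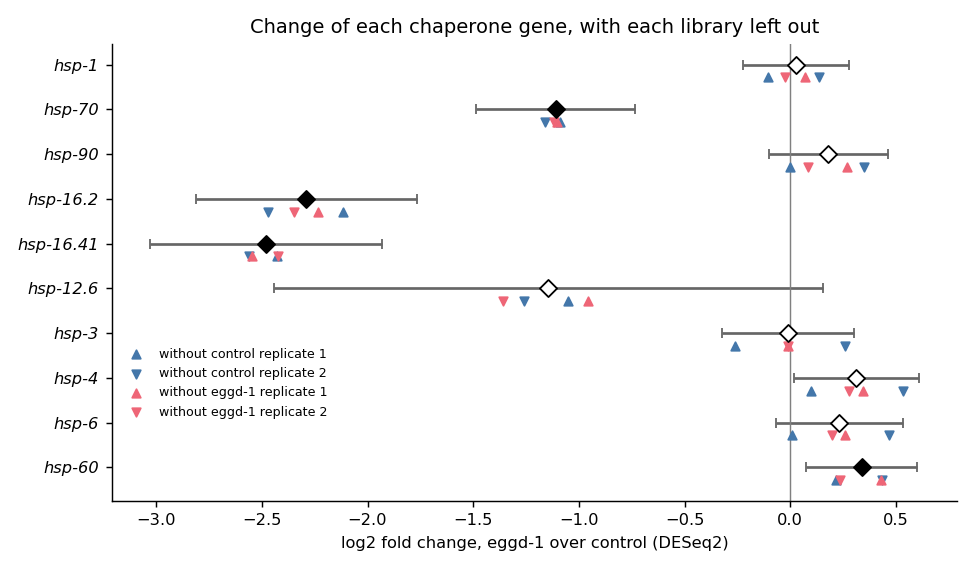
DESeq2 log2 fold change of eggd-1 over control for each chaperone gene, with diamonds for all 4 libraries (filled where the adjusted p-value is under 0.05), bars for 95% intervals and triangles for fits that leave out 1 library. The filled diamonds of hsp-70, hsp-16.2 and hsp-16.41 lie below -1 with their triangles inside the intervals, and that of hsp-60 lies at 0.34, whereas the triangles of hsp-3 fall on both sides of 0, at -0.26 without control replicate 1 and 0.26 without control replicate 2.

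Both ER genes encode forms of BiP, the chaperone that binds newly made secretory proteins. The gene hsp-3 (WBGene00002007, chromosome X, 6089028 to 6092124, minus strand) had 9669 and 13934 normalized counts in control against 11673 and 11753 in eggd-1. The control libraries enclosed the eggd-1 libraries. The log2 fold change was -0.01 (SE 0.16, 95% interval -0.33 to 0.30, DESeq2 adjusted p = 0.965). It was 0.02 by edgeR and 0.08 with size factors that left out sperm-class and collagen rows, turned to 0.26 without control replicate 2 (adjusted p = 0.0397) and stayed negative at -0.26 without control replicate 1 (adjusted p = 0.0286), so that its direction rested on which control library was used.

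The gene hsp-4 (WBGene00002008, chromosome II, 7350112 to 7352645, minus strand) had 5397 and 7308 normalized counts in control against 7700 and 8085 in eggd-1. Both eggd-1 libraries were above both control libraries, as in 38.5% of all tested rows. The log2 fold change was 0.31 (SE 0.15) and did not pass (DESeq2 adjusted p = 0.0867). Leaving out control replicate 1 gave 0.10 and leaving out control replicate 2 gave 0.53 (adjusted p = 2.26e-05). It passed by edgeR (0.34, adjusted p = 0.0445), with size factors from library totals (0.33, adjusted p = 0.0427) and with size factors that left out sperm-class and collagen rows (0.40, adjusted p = 0.0275).

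The pair was also compared within libraries, where scaling cancels. The level of hsp-4 per kilobase was 0.667 and 0.626 times that of hsp-3 in the control libraries and 0.788 and 0.822 times in eggd-1. The ratio did not overlap between the groups. How many other rows had such a ratio to hsp-3 was not counted. For ratios to hsp-1, 36.5% of the other tested rows were higher in both eggd-1 libraries and 37.6% were lower. A permutation of 2 libraries against 2 cannot go below p = 0.333, so no test was made. The deposited table places hsp-4, alone among the 10 genes, in its Spermatogenic class, which holds 14.1% of the tested protein-coding genes.

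The mitochondrial genes encode the matrix Hsp70 (hsp-6) and the ring-shaped chaperonin (hsp-60). The gene hsp-60 (WBGene00002025, chromosome III, 1619742 to 1625803, plus strand) had 11394 and 13312 normalized counts in control against 14519 and 16682 in eggd-1. The groups did not overlap, as in 38.5% of all tested rows with both eggd-1 libraries above both control libraries. The gene was 1.26-fold higher in eggd-1, a log2 fold change of 0.34 (SE 0.13) with a DESeq2 adjusted p of 0.0326. The call was lost without control replicate 1 (0.22, adjusted p = 0.128), without eggd-1 replicate 1 (0.43, adjusted p = 0.16) and without eggd-1 replicate 2 (0.24, adjusted p = 0.471).

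The gene hsp-6 (WBGene00002010, chromosome V, 4824124 to 4826760, minus strand) had 9115 and 12583 normalized counts in control against 12422 and 13047 in eggd-1. The eggd-1 range overlapped with the higher control library. The log2 fold change was 0.23 (SE 0.15, 95% interval -0.07 to 0.53, DESeq2 adjusted p = 0.232). Leaving out control replicate 1 gave 0.006 and leaving out control replicate 2 gave 0.47, where it passed (adjusted p = 0.000105).

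Relative to hsp-1 in the same library, the level of hsp-60 per kilobase was 0.208 and 0.205 in the control and 0.247 and 0.264 in eggd-1, and that of hsp-6 was 0.144 and 0.167 in the control and 0.182 and 0.178 in eggd-1. Neither ratio overlapped between the groups. A ratio to hsp-1 that was higher in both eggd-1 libraries was found for 36.5% of the other tested rows. Of the ER genes, hsp-4 had a ratio to hsp-1 of 0.0938 and 0.107 in the control and 0.1245 and 0.122 in eggd-1, without overlap, whereas the ratio of hsp-3 was 0.141 and 0.171 in the control and 0.158 and 0.148 in eggd-1, with overlap. The ratio of hsp-60 to hsp-6 was 1.45 and 1.23 in the control and 1.36 and 1.48 in eggd-1, with overlap.

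**Figure D3:**
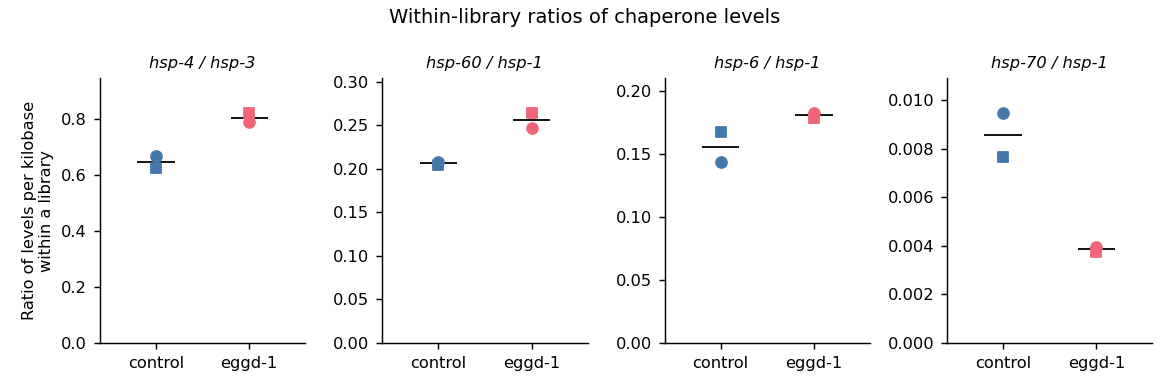
Ratio of levels per kilobase of 2 chaperone genes within each library, for hsp-4 over hsp-3, hsp-60 over hsp-1, hsp-6 over hsp-1 and hsp-70 over hsp-1, with circles for replicate 1, squares for replicate 2, black lines for group means and every axis from 0. The first 3 ratios are higher in both eggd-1 libraries, and the last falls from 0.0095 and 0.0077 to 0.0040 and 0.0038. Of the other tested rows, 36.5% had a ratio to hsp-1 that was higher in both eggd-1 libraries, and 37.6% a lower one.

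The members differed in exon length, and fold changes in this series differed by exon length across all genes. Among tested protein-coding genes, the median log2 fold change was -0.27 for 1171 genes under 500 exon bases, -0.32 for 2086 genes with 500 to 800, -0.03 for 8186 genes with 800 to 2000, 0.18 for 2248 genes with 2000 to 3000 and 0.29 for 1621 genes with 3000 or more. The medians rose with length from 500 bases on, and the shortest bin lay above its neighbour. The genes hsp-16.2 (578 exon bases), hsp-16.41 (640) and hsp-12.6 (769) belong to the bin of 500 to 800 bases, in which 8.53% of genes were lower by at least 2-fold. Relative to the median of their bin, their log2 fold changes were -1.97, -2.16 and -0.82. The other 7 members have between 2057 and 2666 exon bases. Of the genes in their bin, 0.623% were lower by at least 2-fold, 10.6% were lower at any fold and 25.5% were higher. Relative to that bin, hsp-70 was at -1.29, hsp-1 at -0.16, hsp-90 at -0.00 (-0.004 before rounding), hsp-3 at -0.19, hsp-4 at 0.13, hsp-6 at 0.05 and hsp-60 at 0.15. The values of hsp-60, hsp-4 and hsp-6 thus lay near the median of genes of like length. The part of exon length in the chaperone values was not tested.

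**Figure D4:**
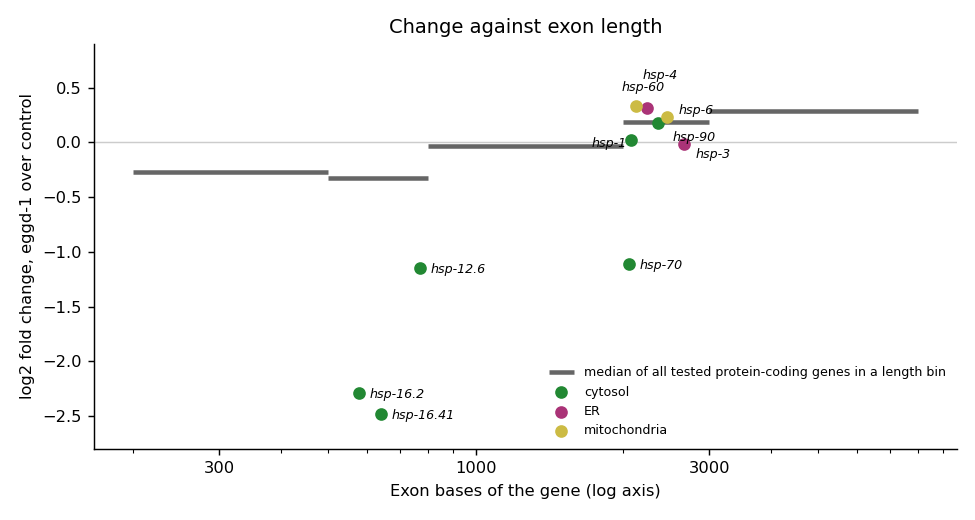
DESeq2 log2 fold change of eggd-1 over control (vertical axis) against exon bases (horizontal log axis) for the 10 chaperone genes, coloured by compartment, with grey bars for the median of all tested protein-coding genes in each length bin, the outermost bins being open-ended. The genes hsp-16.2, hsp-16.41, hsp-12.6 and hsp-70 lie at least 0.82 below the bar of their bin, and the other 6 genes lie between 0.19 below and 0.15 above theirs.

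The deposited table assigns genes to classes, most of them targets of small RNA pathways. Of the 10 genes, hsp-1, hsp-3, hsp-4, hsp-6 and hsp-60 are listed as CSR1 targets, a class that holds 26.0% of the tested protein-coding genes, and hsp-1, hsp-90, hsp-4, hsp-6 and hsp-60 as WAGO4 targets, a class that holds 30.3%. The 3 genes that were lower, hsp-70, hsp-16.2 and hsp-16.41, are the only members listed under no class, as are 43.9% of the tested protein-coding genes.

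Further chaperone genes were taken from 8 lists of 74 genes, all of which were tested. By DESeq2, 31 of the 74 (41.9%) were lower and 5 (6.76%) were higher, against 20.4% and 18.6% of all tested rows. The lists were chosen with earlier results of these data known and hold relatives of the lower members, so these shares are no independent test. With 3 pairs of genes that share reads each counted once, 28 of 71 (39.4%) were lower and 5 (7.04%) were higher. Such shares also differed by exon length over all tested protein-coding genes. They were 33.6% lower and 11.6% higher at 500 to 800 exon bases, and 10.6% lower and 25.5% higher at 2000 to 3000. The part of exon length in the values of the list genes was not tested.

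Among 11 other small heat shock genes, 5 were lower and 3 were higher, with a median log2 fold change of -0.51. The 4 remaining hsp-16 genes all fell by close to 4-fold. They were hsp-16.1 (log2 fold change -1.95, SE 0.19), hsp-16.11 (-1.95, SE 0.19), hsp-16.48 (-1.96, SE 0.19) and hsp-16.49 (-1.95, SE 0.19), with adjusted p-values between 4.04e-23 and 1.32e-22. These 4 genes form near-identical pairs, so hsp-16.1 and hsp-16.11, with 181 and 186 counts each in eggd-1, share reads and do not count as separate measurements. The count of 5 lower genes and the median of -0.51 hold both genes of each pair, which gives their shared reads extra weight. The increases were 0.92 (SE 0.18) for hsp-12.2, 0.42 (SE 0.15) for hsp-25 and 0.37 (SE 0.16) for hsp-43, of which hsp-25 and hsp-43 lost the call without control replicate 1 or without either eggd-1 library, so that 1 was higher in each of these fits. The call of hsp-43 was also lost under the replicate block (adjusted p = 0.0924) and with TMM size factors (adjusted p = 0.0513), leaving 2 higher. The small heat shock gene sip-1, abundant in the germ line and embryo, did not pass (0.04, SE 0.12, adjusted p = 0.824).

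Among 13 partners of the cytosolic chaperones, 8 were lower and 0 were higher (0 also at an unadjusted p-value under 0.05 and by edgeR), with a median log2 fold change of -0.53. The 2 inducible chaperone genes F44E5.4 and F44E5.5, relatives of hsp-70 that share reads with each other, were at -0.84 (SE 0.13) and -0.83 (SE 0.13). Both are in the count of 8 and in the median. The ubiquitin ligase gene chn-1, which encodes the worm form of CHIP, was at -0.77 (SE 0.15, DESeq2 adjusted p = 5.81e-06). Without eggd-1 replicate 1 the count of lower genes was 4, and without control replicate 2 there were 2 higher genes. Among 14 chaperonin and prefoldin genes, 5 were lower and 0 were higher (0 also at an unadjusted p-value under 0.05 and by edgeR), with a median of -0.04. All 5 lower genes encode prefoldin subunits, the 3 lowest being pfd-4 (-1.04, SE 0.16), pfd-6 (-1.04, SE 0.16) and pfd-5 (-0.91, SE 0.14), and none of the 8 cct genes, which encode the cytosolic chaperonin, passed the test. The count of lower genes was 3 without either eggd-1 library, and 3 genes were higher without control replicate 2.

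Among 15 other ER genes of folding and degradation, 5 were lower and 0 were higher by DESeq2 (1 at an unadjusted p-value under 0.05 and 0 by edgeR), with a median log2 fold change of -0.12. The lowest were cup-2, which encodes a derlin of ER-associated degradation (-0.77, SE 0.14), the Hsp70-like gene stc-1 (-0.51, SE 0.17) and the thioredoxin-domain gene dnj-27 (-0.41, SE 0.16). The call of stc-1 was lost without control replicate 1 (adjusted p = 0.249) and without either eggd-1 library, and that of dnj-27 without any 1 of the 4 libraries (adjusted p between 0.0561 and 0.385), under the replicate block (adjusted p = 0.0848) and with size factors that left out sperm-class and collagen rows (adjusted p = 0.111). The count of lower genes was 1 without either eggd-1 library and 2 under the replicate block or the size factors that left out sperm-class and collagen rows. The count of higher genes was 1 with these size factors or with library totals, and 3 without control replicate 2. The 4 ER stress sensor genes gave no call by DESeq2 (0 at an unadjusted p-value under 0.05, with 1 higher and 0 lower by edgeR), at -0.19 for ire-1, -0.22 for xbp-1, -0.07 for pek-1 and 0.42 for atf-6. Without control replicate 1, 1 of them was lower, and without control replicate 2, 1 was higher.

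Among 9 other mitochondrial genes of folding and proteolysis, 4 were lower and 2 were higher, with a median log2 fold change of 0.03. The genes that fell included those of partners of both mitochondrial chaperones. They were Y22D7AL.10, which encodes the lid of the hsp-60 chaperonin (-0.74, SE 0.14, adjusted p = 1.07e-06), and C34C12.8, which encodes the GrpE-like exchange factor of the matrix Hsp70 (-0.97, SE 0.14, DESeq2 adjusted p = 4.83e-11). The J-domain gene dnj-21 was also lower (-1.05, SE 0.22). The increases were 0.46 (SE 0.14) for the protease gene ymel-1 and 0.39 (SE 0.15) for the import gene tin-44. Both calls were lost without either eggd-1 library, leaving 0 higher, and that of tin-44 also without control replicate 2 and under the replicate block (adjusted p = 0.0728), leaving 1 in each. Among 4 mitochondrial stress regulators, 2 were lower and 0 were higher by DESeq2 (0 at an unadjusted p-value under 0.05 and 1 by edgeR). These were ubl-5 (-1.30, SE 0.22) and haf-1 (-0.74, SE 0.29), and the call of haf-1 was lost without any 1 of the 4 libraries, under the replicate block (adjusted p = 0.0767) and with size factors that left out sperm-class and collagen rows (adjusted p = 0.0564), leaving 1 lower in each, while atfs-1 was at -0.06 (SE 0.16).

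The gene of heat shock factor itself, hsf-1, did not pass (log2 fold change -0.09, SE 0.14, DESeq2 adjusted p = 0.676), with control libraries at 2130 ± 277 and eggd-1 libraries at 2009 ± 22.1 normalized counts (SD, n = 2). Its 3 negative regulators were at -0.79 (SE 0.14) for hsb-1, -0.63 (SE 0.20) for ddl-1 and -0.35 (SE 0.16) for ddl-2, and the first 2 passed. The call of ddl-1 was lost without any 1 of the 4 libraries (adjusted p between 0.0694 and 0.227), leaving 1 lower gene in the list, or 2 without control replicate 2.

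**Figure D5:**
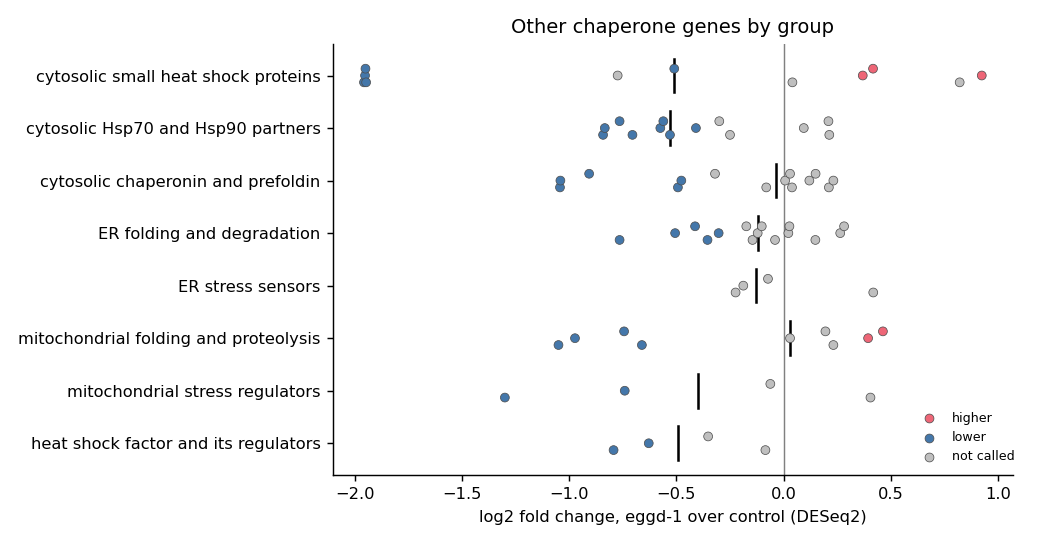
DESeq2 log2 fold change of eggd-1 over control for the 74 other chaperone genes in 8 groups, with each gene a point (red higher, blue lower, grey not called) and a black bar for the median of its group. Blue points number 31 and red points 5, and the 4 overlapping points near -1.95 are the hsp-16 genes of the small heat shock group. Genes that share reads enter the points and the medians as separate genes.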

How the data were processed

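Per the labels and the study's methods, reads were trimmed (Trim Galore), mapped with STAR to WormBase WS279, freed of orphan reads (SAMtools) and assigned to genes by strand in featureCounts, where a read matching several loci is shared among them. Versions are not given in the sources used here. Transposon rows came from Salmon. What the authors deposited are expected counts, unnormalized and in part fractional. The table and the single-library files held identical values, and 7 further columns, which belong to no sample here, were not used.

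After rounding to integers, rows with a count were fitted in DESeq2 1.42.0 (R 4.3.3, Wald test), the tool the authors named, and the 16773 rows left by its own filter on low means were called at an adjusted p under 0.05. Intervals of 95% are Wald intervals. Alternatives were edgeR 4.0.16, other size factors and row filters, a replicate block and leaving out each library. The fits were tested on simulated data. Positions and exon lengths were taken from Ensembl release 115 (WBcel235), where 99.98% of the gene identifiers were found.

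The titles call the libraries sequencing replicates, and the study's methods call them biological replicates. No pair agreed within sampling noise (chi-square per degree of freedom of 26.8 in control and 4.89 in eggd-1). The members and the lists were chosen with earlier results of these data known. In each list the text names up to 3 called genes with the highest and up to 3 with the lowest log2 fold change, provided their normalized counts averaged 10 or more. Other genes of the lists, and the comparison by exon length, were chosen after values were seen.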

Additional observations from a re-analysis of the deposited data

How the results depend on the processing

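Calls for hsp-70, hsp-16.2 and hsp-16.41 held under all 13 alternatives, and the count of lower members stayed between 2 (at a limit of 4-fold) and 4 (by edgeR and without control replicate 1). The count of higher members was 1 in the analysis as reported, 2 by edgeR, 2 with library-total size factors, 2 with size factors without sperm-class and collagen rows, 0 at a limit of 2-fold or of 4-fold (where hsp-60 falls short by construction), and between 0 and 5 when 1 library was left out. The values that reversed were those of hsp-3, at 0.018 by edgeR, 0.01 with library-total size factors (0.007), 0.08 with size factors without sperm-class and collagen rows and 0.01 with the replicate block (0.013), with a range of -0.26 to 0.26 when 1 library was left out, and that of hsp-1, with a range of -0.10 to 0.14. The median of the ER members ranged from -0.081 to 0.395 in the same fits. The cause was not tested. For both hsp-3 and hsp-1, the 2 control libraries lay on opposite sides of both eggd-1 libraries. Fits without 1 library assume that the lone library of its group varies like the other group. Size factors without sperm-class and collagen rows shifted the log2 fold change of all tested rows by 0.09 (median) and raised the share of higher calls over all rows from 47.7% to 57.1%. Of 312 values for the 24 named list genes, 33 lost the call, 0 reversed and the others kept direction and call.

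Deviations of same-numbered libraries correlated at -0.04 over 15192 genes, which gave no sign of pairing by replicate number. A single correlation cannot exclude that the libraries were prepared in pairs. With the replicate block, the members gave 1 higher and 3 lower genes as before, and over all rows 2530 were higher and 2788 lower, against 3127 and 3426 without it. Depth limits hsp-12.6, whose counts of 10 to 37 gave an SE of 0.66.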
